A study of Mus musculus with 8 samples.

Results

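The 10 genes described here are S100a8, S100a9, S100a3, S100a7a, S100a14, S100a16, S100a4, S100a6, S100a10 and S100a11, which belong to the S100 family of small calcium-binding proteins. They were taken as named genes from the 19938 genes that the array annotation names, each through a probe set with exactly 1 gene symbol. S100a11 had more than one such probe set, and the one with the higher mean over the 8 arrays was used. The arrays measured RNA from the paws of male DBA/1J mice, 8 to 10 weeks old, in 4 groups of 8 mice with 2 arrays each. CIA+MLIF mice had collagen-induced arthritis (CIA), raised by injecting chicken collagen II (150 µg, emulsified in complete Freund adjuvant) at the base of the tail, boosted at week 3 with incomplete adjuvant, and received MLIF through the nose every week from before the collagen onwards. MLIF, short for monocyte locomotion inhibitory factor, is a short peptide from the amoeba Entamoeba histolytica. CIA mice received the collagen injections without MLIF, adjuvant+MLIF mice the adjuvant injections and MLIF without collagen, and adjuvant mice the adjuvant injections alone. The labels give the length of the MLIF course in weeks for adjuvant+MLIF mice only. Whether the course was equally long in CIA+MLIF mice is therefore not known here. All 4 groups therefore carried Freund adjuvant, and no array came from an uninjected mouse. The labels place the collection of the paws 4 weeks after the booster, while the series text places it before the booster, and they do not say whether an array holds 1 mouse or a pool.

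S100a8 and S100a9 form calprotectin, the zinc- and manganese-binding complex that fills the cytosol of neutrophils and is also carried by monocytes. Released from these cells, calprotectin acts as an alarmin through Toll-like receptor 4 and the receptor for advanced glycation end products, and its level in joint fluid and blood follows joint inflammation in human arthritis. S100a3 is a protein of the hair cuticle, S100a14 and S100a16 are expressed in epithelia, and S100a7a is the mouse relative of human psoriasin of keratinocytes. S100a4 and S100a6 are abundant in fibroblasts and other mesenchymal cells, S100a10 forms a complex with annexin A2 at the plasma membrane, and S100a11 binds annexin A1. All of them lie on mouse chromosome 3, around the fused S100 genes that encode filaggrin-like proteins of the cornified epidermis.

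The promoters of S100a8, S100a9 and S100a4 are shown because S100a8 and S100a9 are set against S100a4 below. Each line holds the 250 bases before the annotated start of transcription, from RefSeq on GRCm38.p6, written 5′ to 3′ on the gene's own strand. Capitals mark matches to the TATA box letters TATAAA and to the C/EBP letters TTNNGNAA, searched on both strands.
S100a8 (chr3:90668821-90669070, plus strand): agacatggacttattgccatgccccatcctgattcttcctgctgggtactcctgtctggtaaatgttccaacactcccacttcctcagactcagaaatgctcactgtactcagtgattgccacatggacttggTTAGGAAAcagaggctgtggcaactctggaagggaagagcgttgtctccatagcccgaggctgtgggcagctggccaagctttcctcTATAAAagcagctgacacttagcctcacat
S100a9 (chr3:90695722-90695971, minus strand): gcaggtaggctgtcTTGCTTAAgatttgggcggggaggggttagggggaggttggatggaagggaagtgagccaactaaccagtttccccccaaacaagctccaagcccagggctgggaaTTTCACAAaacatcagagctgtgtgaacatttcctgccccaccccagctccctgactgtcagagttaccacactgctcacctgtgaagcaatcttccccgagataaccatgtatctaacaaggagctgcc
S100a4 (chr3:90603520-90603769, plus strand): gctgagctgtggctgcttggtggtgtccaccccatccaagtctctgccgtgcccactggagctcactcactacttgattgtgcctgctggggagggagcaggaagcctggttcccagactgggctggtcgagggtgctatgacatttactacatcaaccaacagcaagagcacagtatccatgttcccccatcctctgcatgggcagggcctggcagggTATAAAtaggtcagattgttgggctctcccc
C/EBP factors drive granulocyte genes. The S100a8 promoter held a C/EBP match that began 117 bases upstream of the start and a TATA box 30 bases upstream. The S100a9 promoter held C/EBP matches 236 and 130 bases upstream, both on the opposite strand, and a TATA box that began at base 1 downstream of the annotated start, outside the stretch shown. The S100a4 promoter held a TATA box 31 bases upstream and no C/EBP match in this window. Over 32851 promoter windows of 300 bases, 13.6% held the TATA letters and 40.7% the C/EBP letters, so these matches are common and only describe the letters. Of the 10 members, 8 had an entry in the promoter table; S100a14 and S100a10 are named only. The AP-1 letters TGANTCA, found in 7.81% of windows, occurred in S100a11 at 136 and 38 bases upstream and in a promoter of S100a16 at 192. The C/EBP letters were also in promoters of S100a3, at 116 and 198 bases upstream. The PU.1 letters GAGGAA, found in 28.3% of windows, occurred in S100a8 at 170 and 36 bases upstream on the opposite strand and in promoters of S100a3, S100a16, S100a11 and S100a4, so the TATA, C/EBP and PU.1 letters were not confined to the calprotectin genes.

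Signals are the authors' deposited log2 values, and 23410 annotated probe sets were tested with limma on 4 group means. The median log2 signal of an array lay between 7.29 and 7.35 on 7 of the arrays and at 6.97 on CIA array 1. The arrays of a group correlated between 0.989 and 0.999 across probe sets, and the median standard error of a difference between groups was 0.176 log2 units. Titles number the arrays within a group as biological replicates without naming animals or pools. The p-values therefore reflect only how far these arrays spread, part of which may be technical, and 2 arrays per group limit the precision. A level belongs to 1 probe set, so levels of different genes are not set against each other.

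The calprotectin genes were highest in CIA paws on both arrays. S100a8 signal was 8.46 and 8.85 in CIA+MLIF paws, 10.65 and 10.98 in CIA paws, 9.45 and 9.40 in adjuvant+MLIF paws, and 8.20 and 8.64 in adjuvant paws. By mean, the order from the top was CIA, adjuvant+MLIF, CIA+MLIF and adjuvant, and only the last pair of neighbours had overlapping arrays. S100a9 signal was 8.23 and 8.83 in CIA+MLIF paws, 10.35 and 10.65 in CIA paws, 9.73 and 9.76 in adjuvant+MLIF paws, and 7.87 and 8.86 in adjuvant paws. The order was the same as for S100a8, and the lowest and the highest value of the CIA+MLIF arrays lay inside the wide span of the adjuvant arrays.

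The epithelial members were ordered otherwise. S100a14 signal was 7.33 and 7.23 in CIA+MLIF paws, 8.55 and 8.95 in CIA paws, 5.85 and 5.82 in adjuvant+MLIF paws, and 5.71 and 5.36 in adjuvant paws. No groups overlapped, and both groups given collagen stood above both groups given adjuvant alone. The 4 arrays of those adjuvant groups lay below their array's median over the unannotated rows at the top of the table, so S100a14 was near the floor there and the size of its rise is poorly determined. S100a3 signal was 7.40 and 7.46 in CIA+MLIF paws, 7.85 and 8.17 in CIA paws, 7.04 and 7.13 in adjuvant+MLIF paws, and 6.88 and 6.79 in adjuvant paws. Its groups followed the order of S100a14, again without overlap. S100a16 signal was 9.35 and 9.68 in CIA+MLIF paws, 9.51 and 9.86 in CIA paws, 9.39 and 9.35 in adjuvant+MLIF paws, and 8.94 and 9.41 in adjuvant paws. Apart from CIA paws against either adjuvant group, every pair of groups overlapped for S100a16. S100a7a lay between 6.63 and 7.04 on all 8 arrays, the narrowest span of the epithelial members.

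The mesenchymal and broadly expressed members differed among themselves. S100a4 signal was 9.98 and 10.26 in CIA+MLIF paws, 9.40 and 9.85 in CIA paws, 10.44 and 10.43 in adjuvant+MLIF paws, and 9.90 and 10.30 in adjuvant paws. S100a6 signal was 11.40 and 12.23 in CIA+MLIF paws, 10.96 and 11.25 in CIA paws, 12.31 and 12.25 in adjuvant+MLIF paws, and 11.41 and 12.25 in adjuvant paws. Both genes were lowest in CIA paws and highest in adjuvant+MLIF paws, the reverse of S100a8 at the CIA end. S100a11 signal was 10.74 and 10.75 in CIA+MLIF paws, 11.17 and 11.55 in CIA paws, 10.86 and 10.87 in adjuvant+MLIF paws, and 10.95 and 11.04 in adjuvant paws. S100a11 stood highest in CIA paws without overlap. S100a10 lay between 11.77 and 12.28 on all 8 arrays, and the CIA arrays, at 11.79 and 12.28, enclosed those of both adjuvant groups. Array 1 of CIA+MLIF and array 1 of adjuvant were both lower than their partners for S100a8, S100a9, S100a16, S100a4, S100a6, S100a10 and S100a11.

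**Figure D1:**
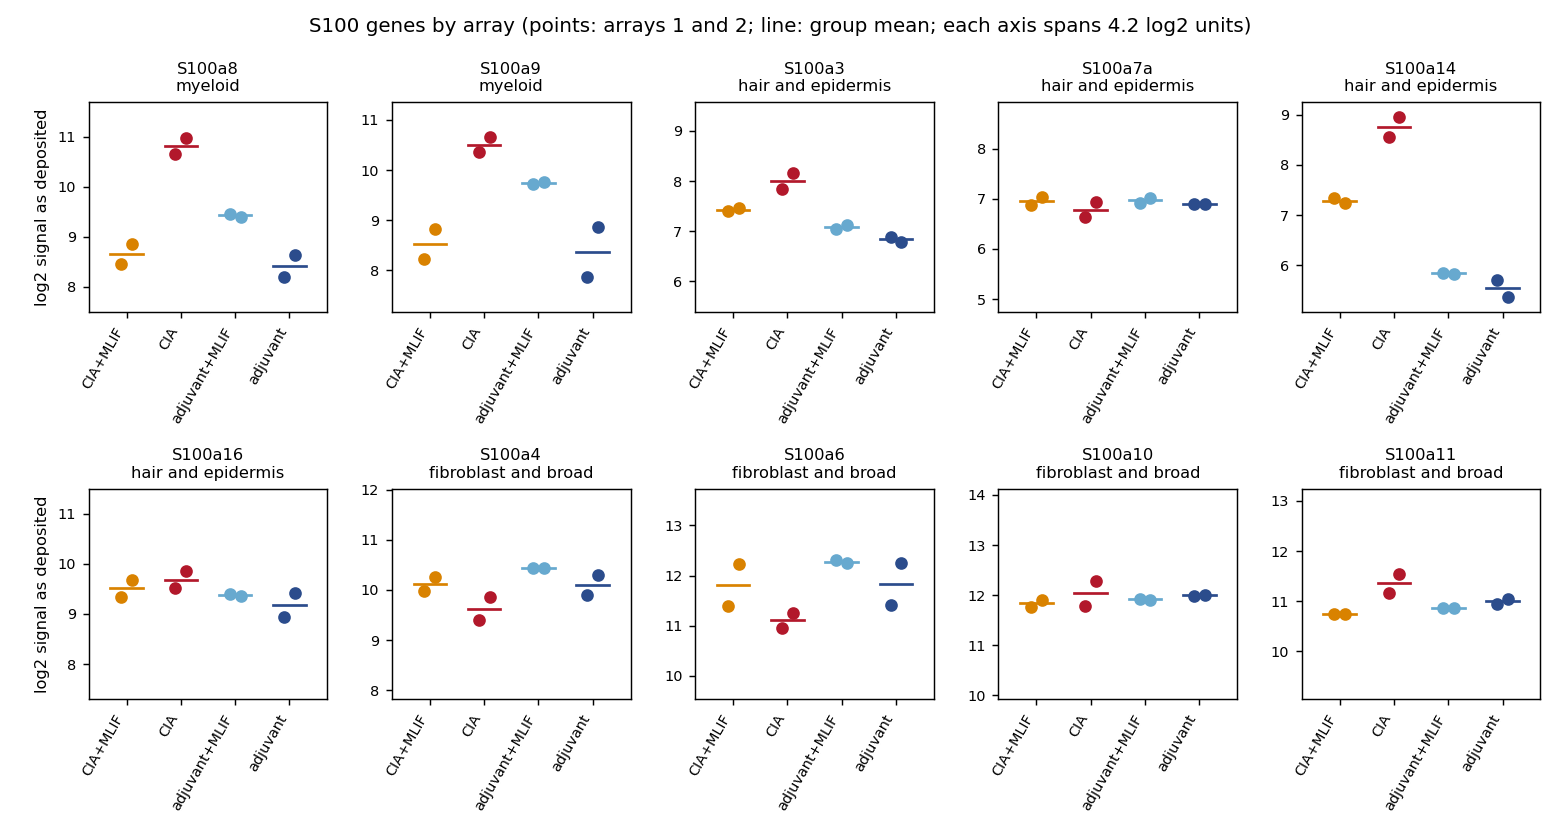
Deposited log2 signal of the 10 S100 genes on each array, with groups along the horizontal axis, a point per array and a line at the group mean; every vertical axis spans 4.2 log2 units. S100a8, S100a9, S100a14 and S100a3 stand highest in CIA paws, and S100a14 also stands apart between CIA+MLIF paws (7.33 and 7.23) and adjuvant paws (5.71 and 5.36).

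Collagen arthritis without the peptide was set against adjuvant alone. In CIA paws, 4 of the 10 genes rose and none fell relative to adjuvant paws by limma at an adjusted p under 0.05. Over all probe sets, 5.08% rose and 14.1% fell in this comparison. S100a14 rose by 3.22 log2 units (SE 0.183, adjusted p = 6.65e-06), S100a8 by 2.39 (SE 0.206, adjusted p = 6.48e-05, 5.26-fold) and S100a9 by 2.14 (SE 0.307, adjusted p = 0.00132, 4.40-fold). S100a3 rose by 1.17 (SE 0.156, adjusted p = 0.000882, 2.26-fold). The changes of S100a8 and S100a9 were exceeded by 0.478% and 0.581% of probe sets, and that of S100a14 by 0.205%.

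The other members did not pass in that comparison. The median change of all probe sets was -0.23 and that of the 10 genes 0.439, so some of the small changes shift with the centre. S100a16 differed by 0.51 (adjusted p = 0.109) and S100a11 by 0.37 (adjusted p = 0.136). S100a6 differed by -0.73 (SE 0.313, adjusted p = 0.129) and S100a4 by -0.47 (SE 0.204, adjusted p = 0.13), which is -0.50 and -0.24 relative to the median probe set. S100a7a differed by -0.12 (95% interval -0.47 to 0.23), which turned to 0.02 after centring, and S100a10 by 0.04 (-0.36 to 0.44). With each array centred on its median, S100a16 (0.65, adjusted p = 0.0172) and S100a11 (0.50, adjusted p = 0.00389) passed as well, and the same pair passed after quantile normalization. Without CIA array 2 S100a4 differed by -0.70, and without CIA array 1 S100a11 differed by 0.56. Each of these fits left a single CIA array, and CIA array 1 had the lowest median of all arrays.

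MLIF in arthritic mice was examined by setting CIA+MLIF paws against CIA paws, which are the same CIA arrays as before. In CIA+MLIF paws 5 of the 10 genes fell and none rose, where 3.77% of all probe sets fell and 11.6% rose. S100a8 fell by 2.16 log2 units (SE 0.206, adjusted p = 0.000213), so that its signal in CIA paws was 4.47-fold that in CIA+MLIF paws, and S100a9 fell by 1.97 (SE 0.307, adjusted p = 0.00289, 3.92-fold). S100a14 fell by 1.47 (SE 0.183, adjusted p = 0.00085, 2.77-fold). S100a11 fell by 0.61 (SE 0.161, adjusted p = 0.0336) and its second probe set by 0.54 (adjusted p = 0.0478). RefSeq also lists a pseudogene of S100a11, and whether either probe set reads it was not tested. The platform number of the chosen probe set lies away from those of the other members, whereas that of the second lies close to that of S100a10. The number of the S100a9 probe set also lies apart from the rest, though less far. S100a3 fell by 0.58 (SE 0.156, adjusted p = 0.037).

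The falls of S100a8, S100a9 and S100a14 passed in every alternative tried, and those of S100a3 and S100a11 did not. Without CIA+MLIF array 1 the adjusted p was 0.193 for S100a3 and 0.166 for S100a11, and without CIA+MLIF array 2 it was 0.122 and 0.129. Leaving out either adjuvant array gave 0.0777 and 0.0709, and either adjuvant+MLIF array gave 0.0945 and 0.0829, so that 3 members passed in each of those fits. S100a6 and S100a4 were higher by 0.71 (SE 0.313, adjusted p = 0.147) and 0.49 (SE 0.204, adjusted p = 0.125) and did not pass. S100a6 passed as higher after quantile normalization (0.72, adjusted p = 0.0395). Without CIA array 2, which left only CIA array 1 with its low array median, S100a4 differed by 0.72 and S100a7a by 0.33. S100a10 passed as lower after centring (-0.35, adjusted p = 0.0293), and it differed by -0.44 without CIA array 1. S100a16, S100a10 and S100a7a differed by -0.17, -0.20 and 0.18, and the last turned to -0.02 after quantile normalization. The median change of all probe sets was 0.224, and that of the 10 genes -0.389.

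**Figure D2:**
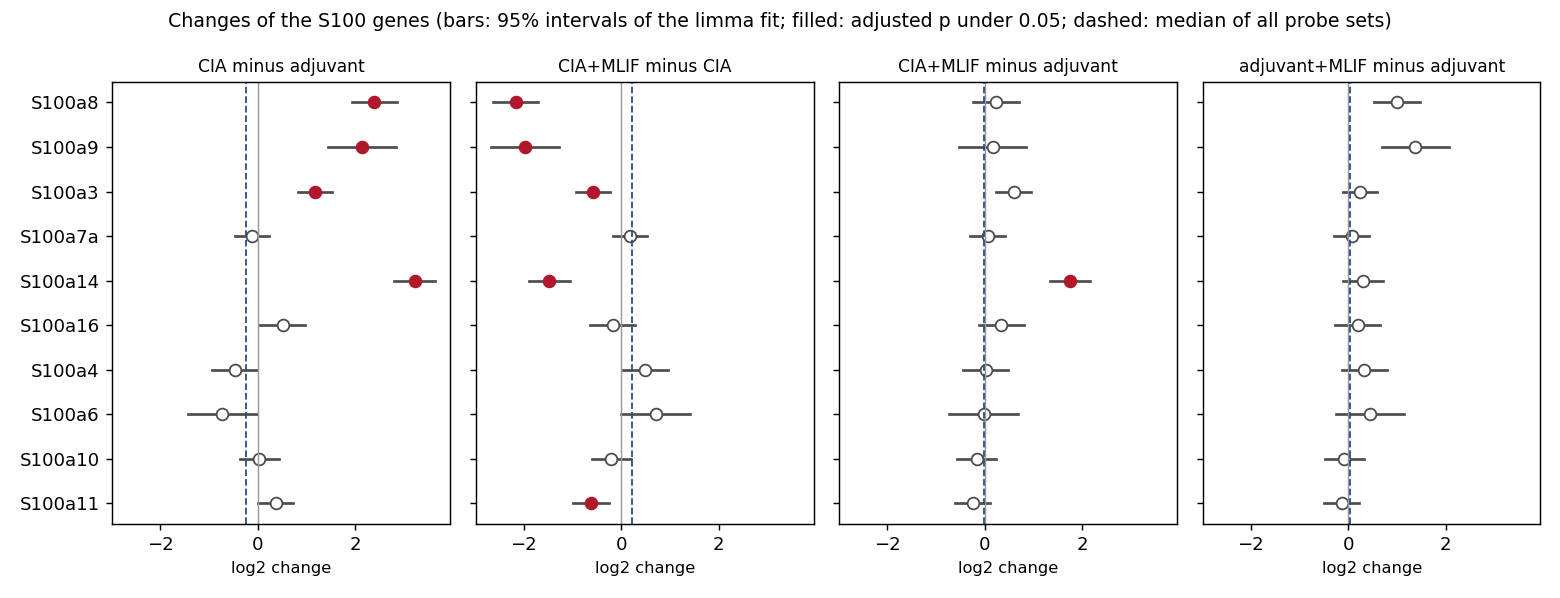
Log2 change of the 10 S100 genes in 4 comparisons, with a point per gene, bars for the 95% interval of the limma fit, filled points where the adjusted p was under 0.05, and a dashed line at the median of all probe sets. S100a8 and S100a9 lie at 2.39 and 2.14 in CIA minus adjuvant, at -2.16 and -1.97 in CIA+MLIF minus CIA, and at 0.23 and 0.17 in CIA+MLIF minus adjuvant, where S100a14 stays at 1.75.

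CIA+MLIF paws were then set against adjuvant paws that had neither collagen nor peptide. Only S100a14 of the 10 genes rose, where 0.842% of all probe sets rose and 0% fell. S100a14 was higher by 1.75 log2 units (SE 0.183, adjusted p = 0.000962), against adjuvant arrays near the floor. S100a8 and S100a9 differed by 0.23 (95% interval -0.23 to 0.70) and 0.17 (95% interval -0.53 to 0.86), and their arrays overlapped. S100a9 was lower in CIA+MLIF paws without adjuvant array 1 (-0.33) or without CIA+MLIF array 2 (-0.13), so its sign here rests on single arrays. Arrays did not overlap for 4 of the 10 genes, S100a3 among them, and the share over all probe sets was not counted. S100a3 differed by 0.60 (SE 0.156, adjusted p = 0.34 by limma). It passed after quantile normalization (0.59, adjusted p = 0.0139), after centring (0.58, adjusted p = 0.0278) and without either CIA array (adjusted p = 0.0213). The other members lay between -0.25 for S100a11 and 0.34 for S100a16.

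CIA+MLIF paws against adjuvant+MLIF paws, the effect of collagen under the peptide, again called only S100a14. S100a14 was higher by 1.45 log2 units (SE 0.183, adjusted p = 0.00369), where 0.863% of all probe sets rose and 0.0171% fell. That call was lost without CIA+MLIF array 1 (1.40, adjusted p = 0.082) and without CIA+MLIF array 2 (1.49, adjusted p = 0.0565). The calprotectin genes were lower in CIA+MLIF paws on both arrays, without overlap, and did not pass. Of the 10 genes, 8 did not overlap in this comparison and the share over all probe sets was not counted, so this sets neither gene apart. S100a8 differed by -0.77 (SE 0.206, adjusted p = 0.329) and S100a9 by -1.21 (SE 0.307, adjusted p = 0.258). Only 1 of the 23410 probe sets had a lower change than S100a9. S100a8 passed after quantile normalization (-0.75, adjusted p = 0.0426).

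In mice without collagen, adjuvant+MLIF paws were set against adjuvant paws. None of the 10 genes passed by limma, and 0% of all probe sets rose and 0% fell. At an unadjusted p under 0.05, limma gave 673 probe sets, 255 higher and 418 lower. They were 2.87% of all probe sets, a share below the threshold itself. The 2 members among them were both higher. These were S100a9, higher by 1.38 log2 units (SE 0.307, adjusted p = 0.5), and S100a8, higher by 1.00 (SE 0.206, adjusted p = 0.419). By size of change S100a9 ranked 2 and S100a8 ranked 6 among the 23410 probe sets. Neither gene's arrays overlapped between these groups, but this held for 9 of the 10 members and so sets neither gene apart. The share of all probe sets without overlap was not counted. The difference between the 2 adjuvant+MLIF arrays had an SD of 0.0865 over probe sets, the smallest of the groups. Under quantile normalization S100a8 passed (0.96, adjusted p = 0.0267). S100a4 and S100a6 differed by 0.33 and 0.45 and S100a14 by 0.30, each with an adjusted p of 1.

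The estimated effect of MLIF on the calprotectin genes was negative under collagen and positive, without passing, under adjuvant alone, and the interaction term tested that difference. The effect of MLIF under collagen minus its effect under adjuvant was -3.16 log2 units for S100a8 (SE 0.291, adjusted p = 0.00039) and -3.35 for S100a9 (SE 0.434, adjusted p = 0.00212). S100a14 also passed at -1.77 (SE 0.259, adjusted p = 0.00387), so 3 of the 10 genes passed as negative and none as positive, against 1.88% and 4.98% of all probe sets. S100a3 did not pass (-0.83, adjusted p = 0.0583), although it did after centring (-0.96, adjusted p = 0.00251). Its term was -0.99 without CIA array 1 and -0.67 without CIA array 2. S100a11 (-0.48, adjusted p = 0.257) passed after centring (-0.62, adjusted p = 0.0134), which with S100a3 made 5 members. Without CIA array 1 its term was -0.68. Only 1 probe set had a more negative interaction term than S100a9.

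The contrast between myeloid and other members was measured as a difference of changes within arrays, for 4 pairs of genes. In CIA paws S100a4 stood lowest and the fibroblast list described below stood highest. The pairs are therefore contrasts between genes and not between cell types. In CIA minus adjuvant, S100a8 moved 2.87 log2 units more than S100a4 (SE 0.0612) and S100a9 2.61 more (SE 0.241). Against S100a14, S100a8 moved by -0.82 (SE 0.33) and S100a9 by -1.08 (SE 0.535). The estimated rise was thus larger for S100a14, but its adjuvant arrays were near the floor and the size of its rise is poorly determined. In CIA+MLIF minus CIA the difference from S100a4 was -2.65 for S100a8 and -2.47 for S100a9, and the difference from S100a14 was -0.69 and -0.50. In CIA+MLIF minus adjuvant the difference from S100a14 was -1.51 for S100a8 (SE 0.33) and -1.58 for S100a9 (SE 0.535). The arrays' differences did not overlap between groups in any of these, which gives an exact two-sided permutation p of 0.333 each, the smallest that 2 arrays against 2 allow, so none could pass. The SE values rest on the pairs' own spread over 8 arrays with no pooling across genes.

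The granulocyte marker lists moved with calprotectin in the comparisons of CIA paws. Of the 9 measured genes of the neutrophil list, 8 rose in CIA paws against adjuvant paws, where 5.08% of all probe sets rose. The same count fell in CIA+MLIF paws against CIA paws, where 3.77% of all probe sets fell. Retnlg, a resistin-like protein of granulocytes, rose by 2.70 log2 units, Mmp9, a gelatinase stored in neutrophil granules, by 2.61, and Cxcr2, the neutrophil chemokine receptor, by 2.32. In CIA+MLIF paws Mmp9 fell by 2.65, Retnlg by 2.27 and Cxcr2 by 2.13. With the array median set to 0, the list averaged -0.669 and -0.721 in CIA+MLIF paws, 1.07 and 1.07 in CIA paws, -0.482 and -0.502 in adjuvant+MLIF paws, and -0.822 and -0.773 in adjuvant paws. That order of groups was the order of S100a8 and S100a9.

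All 8 genes of the marrow granulocyte precursor list rose in CIA paws against adjuvant paws, where 5.08% of all probe sets rose. All 8 fell in CIA+MLIF paws against CIA paws, where 3.77% of all probe sets fell. Ltf, the granule protein lactoferrin, rose by 2.23, Ngp, a neutrophilic granule protein, by 2.05 and Mpo, myeloperoxidase, by 2.02. The mean of the list was 0.0439 and 0.0351 in CIA+MLIF paws, 1.66 and 1.56 in CIA paws, 0.392 and 0.438 in adjuvant+MLIF paws, and -0.309 and -0.248 in adjuvant paws. In adjuvant+MLIF against adjuvant paws Ltf differed by 1.05 (adjusted p = 0.229) and Ngp by 0.91 (adjusted p = 0.208) by limma, beside the unpassed changes of S100a8 and S100a9. These lists name proteins of granulocytes and of their marrow precursors, and paws can hold bone marrow. Their part in the calprotectin result was not tested, and in such bulk tissue fewer cells of a type and less RNA per cell cannot be told apart.

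Of the 9 measured genes of the macrophage list, 1 rose and 1 fell in CIA against adjuvant paws. These were Mpeg1, a pore-forming protein of phagocytes (0.85), and Cd163, the haemoglobin scavenger receptor (-1.14). Over all probe sets, 5.08% rose and 14.1% fell there. The mean of the list was 2.12 and 2.34 in CIA+MLIF paws and 2.57 and 2.46 in CIA paws. It was 2.42 and 2.46 in adjuvant+MLIF paws and 2.31 and 2.50 in adjuvant paws, so CIA and adjuvant arrays overlapped. Mpeg1 did not pass without adjuvant array 1 (0.74, adjusted p = 0.0875 by limma), and centring raised the count that passed to 5. Relative to CIA paws, in CIA+MLIF paws Mpeg1 fell by 1.26 and Ccr2, a chemokine receptor of monocytes, by 0.82, while Cd163 rose by 1.38, and the CIA+MLIF means lay below both CIA means. Ccr2 did not pass without either CIA+MLIF array, and more genes of the list passed without either CIA array. Centring gave a count of 6 and quantile normalization 7. The part of monocytes in the fall of calprotectin was not tested.

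**Figure D3:**
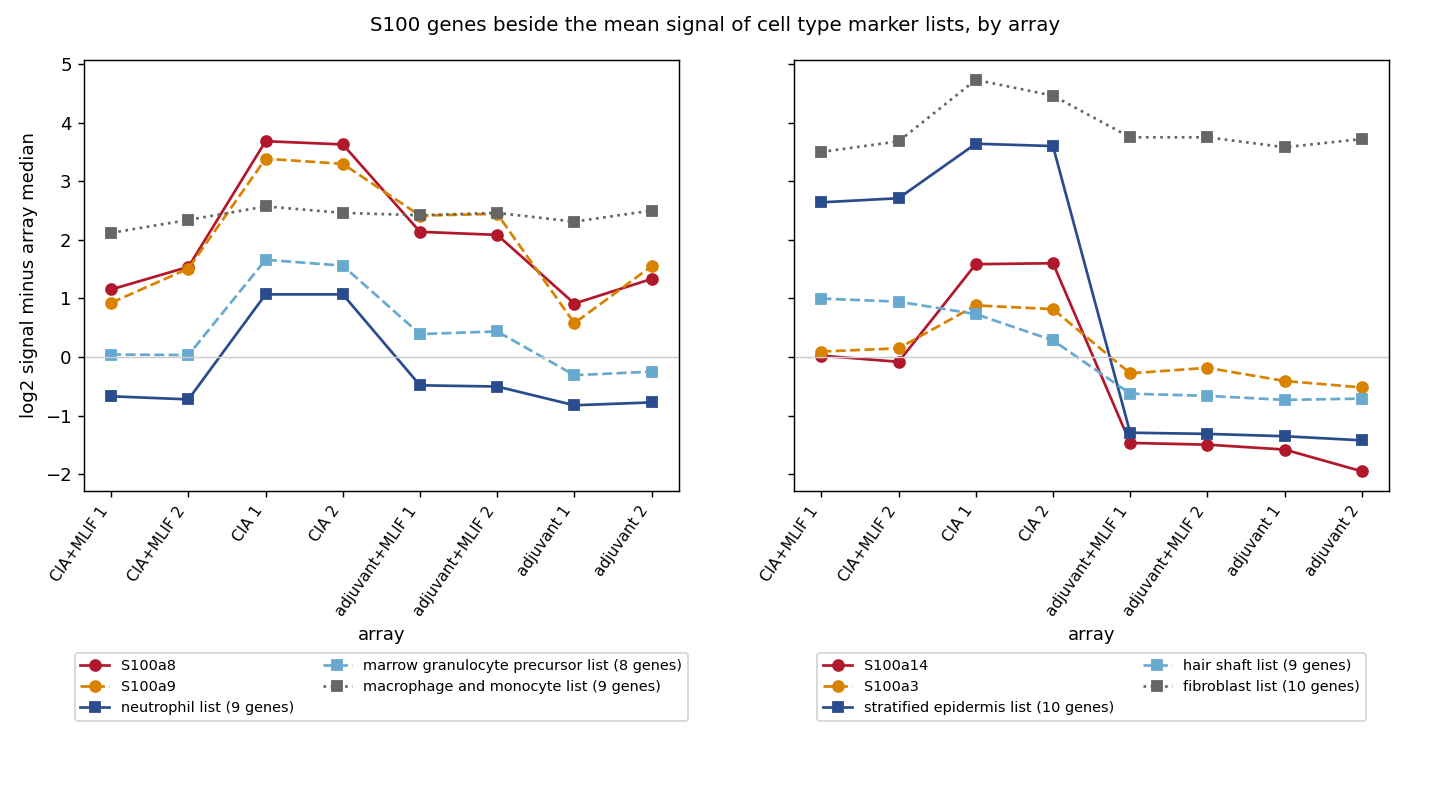
Signal of S100 genes and mean signal of marker lists on each array, as log2 minus the array median; circles are genes, squares are list means, and lines only join the points of a series. S100a8 and S100a9 peak on the CIA arrays with the neutrophil list (1.07 and 1.07). The stratified epidermis list is high on the CIA+MLIF and CIA arrays and low on all 4 arrays without collagen. S100a14 is also low on those 4 arrays and high on the CIA arrays. On the CIA+MLIF arrays S100a14 lies near the array median (0.025 and -0.081).

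S100a14 and S100a3 rose in CIA paws together with genes of the epidermal lists. Of the 10 measured genes of the stratified epidermis list, 9 rose in CIA paws against adjuvant paws, 6 fell in CIA+MLIF against CIA paws, and 8 were still higher in CIA+MLIF against adjuvant paws. The shares of all probe sets, in that order, were 5.08% higher, 3.77% lower and 0.842% higher. Krt1 and Krt10, the keratins of the suprabasal epidermis, rose by 7.23 and 6.41 log2 units in CIA paws, and they were 7.03 and 5.38 higher in CIA+MLIF paws than in adjuvant paws. The mean of the list was 2.64 and 2.71 in CIA+MLIF paws, 3.64 and 3.60 in CIA paws, -1.29 and -1.31 in adjuvant+MLIF paws, and -1.35 and -1.42 in adjuvant paws. The mean of the hair shaft list, with 8 of 9 genes higher in CIA than in adjuvant paws, was 0.998 and 0.945 in CIA+MLIF paws, 0.733 and 0.285 in CIA paws, -0.624 and -0.661 in adjuvant+MLIF paws, and -0.73 and -0.708 in adjuvant paws. S100a3 was higher in CIA than in CIA+MLIF paws, whereas 4 of those 9 hair genes rose and 2 fell in CIA+MLIF against CIA paws. Among all probe sets 11.6% rose and 3.77% fell between those groups. All 6 genes of the stressed keratinocyte list rose in CIA paws, with a mean of 0.53 and 0.315 in CIA+MLIF paws, 0.675 and 0.45 in CIA paws, -1.61 and -1.65 in adjuvant+MLIF paws, and -1.34 and -1.68 in adjuvant paws. Between CIA+MLIF and CIA paws, where S100a14 and S100a3 fell, 3 of those 6 genes fell and 3 rose, led by Krt6b (1.71) and Krt16 (1.25), keratins of wounded epidermis, and Krt16 lost the call without CIA+MLIF array 1 (adjusted p = 0.104 by limma) or 2 (0.0582). The count of those 6 genes that passed was 3 without either CIA+MLIF array. The epidermal count that fell was 3 without CIA+MLIF array 1. The hair shaft count in CIA against adjuvant paws was 4 without adjuvant array 1 and 5 without adjuvant array 2, and in CIA+MLIF against CIA paws 3 genes passed without any array of CIA+MLIF or adjuvant+MLIF. The part of skin in the values of S100a14 and S100a3 was not tested.

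S100a4 and S100a6 stood opposite to the fibroblast list in CIA paws only, and neither gene passed against adjuvant paws. Among the other groups, the list and both genes were highest by mean in adjuvant+MLIF paws. In CIA against adjuvant paws 7 of the 10 genes of the list rose, where 5.08% of all probe sets rose. They were led by Postn, the matrix protein periostin (2.12), and Lum, the proteoglycan lumican (1.74). The mean of that list was 3.50 and 3.68 in CIA+MLIF paws, 4.73 and 4.46 in CIA paws, 3.75 and 3.75 in adjuvant+MLIF paws, and 3.58 and 3.72 in adjuvant paws, highest where S100a4 and S100a6 were lowest. All 10 genes of the skeletal muscle list fell in CIA paws, where 14.1% of all probe sets fell. Their mean was 5.06 and 5.32 in CIA+MLIF paws, 4.05 and 3.95 in CIA paws, 5.27 and 5.27 in adjuvant+MLIF paws, and 5.18 and 5.32 in adjuvant paws. All 6 adipocyte genes fell there too, with a mean of 2.12 and 2.32 in CIA+MLIF paws, 1.12 and 1.23 in CIA paws, 2.12 and 2.13 in adjuvant+MLIF paws, and 2.28 and 2.41 in adjuvant paws. The part of muscle and fat in the values of S100a4 and S100a6 was not tested.

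The genes nearest in pattern to 4 members over the 8 arrays were these. S100a8 was nearest to Dmxl2 (Pearson r 0.995), Lcn2, the neutrophil siderophore-binding protein (0.994), Ltf (0.994), Itgb2l (0.993) and Camp, the cathelicidin peptide (0.991). S100a14 was nearest to Efna3 (0.998), Pla2g2f (0.997), Cdh1, the epithelial cadherin (0.996), Car6 (0.996) and Serpinb12 (0.995). S100a3 was nearest to Tmem40 (0.996), Slc1a4 (0.994), Gramd3 (0.994), Acp7 (0.994) and Sult2b1 (0.991). S100a4 was nearest to Ndufb11, a subunit of respiratory complex I (0.986), Cox4i1, a subunit of cytochrome oxidase (0.985), Mrpl14 (0.985), Rex1bd (0.985) and Mgst1 (0.982). Among the members themselves r was 0.962 between S100a8 and S100a9, 0.987 between S100a3 and S100a14, and 0.967 between S100a4 and S100a6. Across the classes r was 0.844 between S100a8 and S100a3, 0.845 between S100a8 and S100a11, 0.807 between S100a8 and S100a16, and 0.762 between S100a8 and S100a14. These coefficients share the 4 groups and the arrays, each centred on its median, and carry no test.

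Neighbours on the chromosome differed in their response. Along chromosome 3 the members come in the order S100a14, S100a16, S100a3, S100a4, S100a6, S100a7a, S100a8 and S100a9, then, beyond the fused genes, S100a11 and S100a10. S100a2 lies between S100a3 and S100a4, S100a5 between S100a4 and S100a6, and Pglyrp4 after S100a9. S100a7a, which lay at -0.12 in CIA minus adjuvant, is the protein-coding neighbour before S100a8, which rose by 2.39. S100a7a signal was low, between -0.42 and -0.28 relative to the array median, and whether its probe set detects the gene was not tested. Of the 6 measured fused S100 genes 5 rose in CIA against adjuvant paws, where 5.08% of all probe sets rose. These were Hrnr, hornerin, by 6.12, Flg2, filaggrin 2, by 3.36, Tchh, trichohyalin, by 1.52, Crnn, cornulin, by 1.31 and Rptn, repetin, by 1.20. In CIA+MLIF against CIA paws Flg2 fell by 2.56, Tchh by 1.40 and Hrnr by 0.66. Hrnr lost that call without either CIA+MLIF array and without either adjuvant+MLIF array. More of the genes passed without CIA array 2, which left only CIA array 1 with its low array median. In CIA+MLIF against adjuvant paws Hrnr (5.46) and Rptn (1.30) were higher, although Rptn lost the call without any of those 4 arrays (adjusted p between 0.0715 and 0.128).

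**Figure D4:**
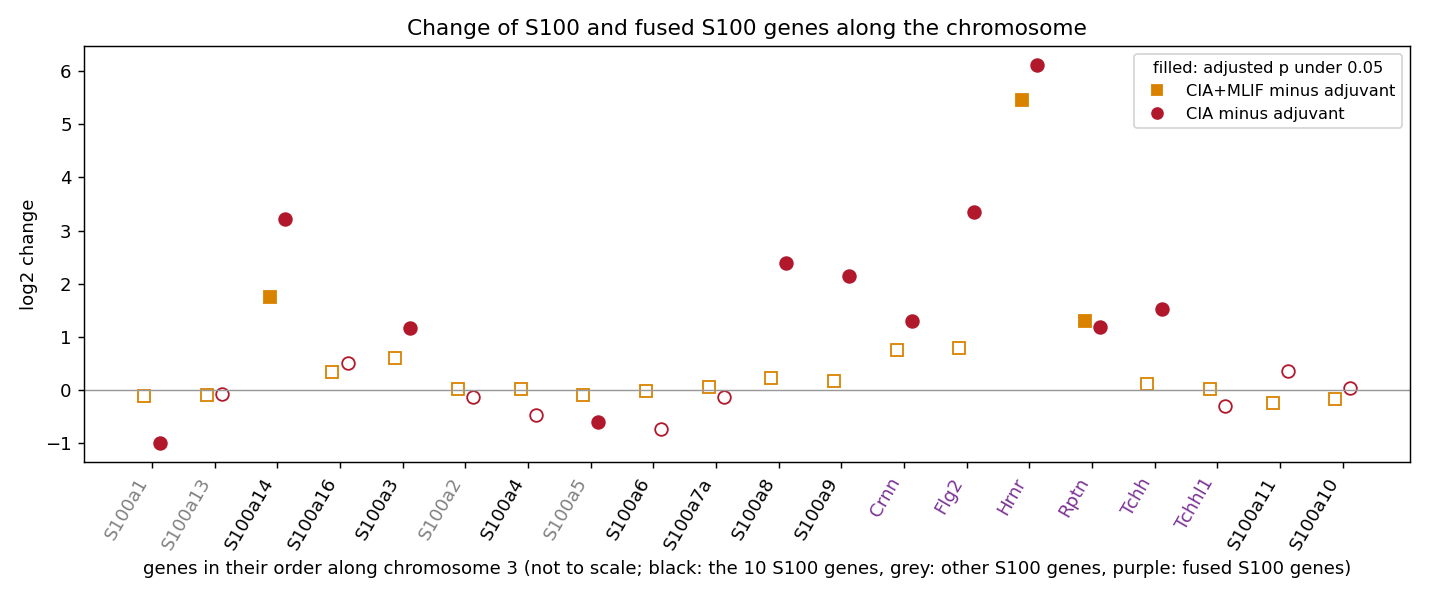
Log2 change of S100 and fused S100 genes in their order along chromosome 3, not to scale, for CIA+MLIF minus adjuvant (squares) and CIA minus adjuvant (circles), filled where the adjusted p was under 0.05. S100a8 and S100a9 are filled for CIA only, at 2.39 and 2.14, while S100a14, Hrnr and Rptn are filled in both comparisons, which share the adjuvant arrays.

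Of the 7 measured S100 genes outside the 10, 4 fell and none rose in CIA against adjuvant paws, where 14.1% of all probe sets fell. Those that fell were S100a1, a muscle S100 protein, by 0.99, S100b, a glial and fat cell S100 protein, by 0.72, S100g, a vitamin D-dependent calbindin, by 0.69 and S100a5 by 0.60. S100a2, S100z and S100a13 differed by -0.12, -0.08 and -0.07 and did not pass. The count that passed was 1 without adjuvant array 1 and 0 without adjuvant array 2. In CIA+MLIF against CIA paws the same 4 rose, where 11.6% of all probe sets rose. S100a1 rose by 0.89, S100a5 by 0.52, and S100b and S100g by 0.50 each. Fewer of them passed without either array of CIA+MLIF, adjuvant or adjuvant+MLIF.

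Of 10 genes for receptors and signalling, 2 rose and 1 fell in CIA against adjuvant paws. Over all probe sets, 5.08% rose and 14.1% fell there. Myd88, the adaptor of Toll-like receptors, rose by 0.96 and Cd14, their co-receptor, by 0.79, while Cd36, a scavenger receptor, fell by 0.73. Both Myd88 (fell by 0.76) and Cd14 (fell by 0.78) fell in CIA+MLIF against CIA paws. Tlr4 and Ager, the receptors named above, differed by -0.23 (adjusted p = 0.37) and -0.40 (adjusted p = 0.101) in CIA against adjuvant paws by limma. Fewer of the genes passed in CIA against adjuvant paws without either adjuvant array, and more without either CIA array. In CIA+MLIF against CIA paws fewer passed without either CIA+MLIF array. More passed there without CIA array 2, which left only CIA array 1 with its low array median.

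Of the 7 binding partners of S100a4, S100a6, S100a10 and S100a11, 1 rose and 2 fell in CIA against adjuvant paws. Among all probe sets 5.08% rose and 14.1% fell there, and the list median of -0.26 lay near the -0.23 of all probe sets. In CIA+MLIF against CIA paws 11.6% of all probe sets rose and 3.77% fell. Anxa1, the partner of S100a11, rose by 0.57 (adjusted p = 0.0343 by limma), and Anxa11 and Anxa6 fell by 0.86 and 0.60. In CIA+MLIF against CIA paws Anxa1 fell by 0.60 (adjusted p = 0.0344 by limma), beside the fall of S100a11, and Anxa11 rose by 0.92. Anxa2, the partner of S100a10, differed by 0.56 and -0.44 in these comparisons and did not pass (adjusted p = 0.0674 and 0.139 by limma). Fewer of the partners passed in CIA against adjuvant paws without either adjuvant array and without either adjuvant+MLIF array. More passed without CIA array 2, which left only CIA array 1 with its low array median. In CIA+MLIF against CIA paws fewer passed without either array of CIA+MLIF, adjuvant or adjuvant+MLIF, and more without CIA array 2.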

How the data were processed

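The members and the gene lists were chosen with earlier results of these data known. The deposited values are log2 signals of Affymetrix Mouse Gene 1.0 ST arrays, 35557 rows on 8 arrays made from 300 ng of RNA each. How the authors summarized and normalized the arrays into these deposited log2 values is not stated by any label or header used here. The 23410 rows with platform annotation were tested; 21789 of them had 1 gene symbol. limma 3.58.1 in R 4.3.3 was fitted to 4 group means (lmFit, contrasts.fit, eBayes; 4 residual and 5.27 prior degrees of freedom), with Benjamini-Hochberg adjustment over all tested rows within each of 6 comparisons. "Rose", "fell" and "passed" mean an adjusted p under 0.05, and intervals are at 95%. The planned moderated test of differences between 2 members subtracted a shared row, so that rows no longer varied separately and the pooled variance was unusable. Unmoderated standard errors and exact permutation tests stand in its place. All 10 members are named. Of most lists at most 4 genes per comparison are named, mainly those of largest change among the ones that passed. In CIA against adjuvant paws all fused S100 genes that rose and all measured S100 genes outside the 10 are named. Krt10 is named although Krt2 rose more there, by 6.86. Receptors or partners of a member are named besides, chosen after their values were seen. Marker lists are means of log2 signal minus the array median over the tested rows. The number of arrays limits the precision, and signal relative to background is known only from unannotated rows. Alternatives were quantile normalization, centring, a filter on dim rows, trended and robust variance, a replicate block, averaged adjuvant+MLIF arrays, each array left out, a fit of only the groups compared, and, added after seeing the data, all rows tested and a crossed block. Replicates correlated between 0.989 and 0.999, and none was counted as a duplicate. Figures were drawn with Matplotlib 3.10.9.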

Additional observations from a re-analysis of the deposited data

Results flagged for a closer look

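In 3 genes the effect of MLIF differed between collagen-injected and adjuvant-injected mice by limma's interaction term, given as the effect under collagen minus the effect under adjuvant. It was -3.16 log2 units for S100a8 (adjusted p = 0.00039 by limma), with an effect of MLIF of -2.16 under collagen and 1.00 under adjuvant. It was -3.35 for S100a9 (adjusted p = 0.00212 by limma), with effects of -1.97 and 1.38. It was -1.77 for S100a14 (adjusted p = 0.00387 by limma), with effects of -1.47 and 0.30, and both adjuvant groups of S100a14 were near the floor. Every CIA+MLIF array was below every CIA array for these genes, and every adjuvant+MLIF array was above every adjuvant array, although none of the effects under adjuvant passed. The arrays of those adjuvant groups did not overlap for 9 of the 10 members, and the share over all probe sets was not counted. These 3 terms passed in all alternatives that were run. Of the 8 genes of the marrow granulocyte precursor list, all fell with S100a8 and S100a9 under collagen, where 3.77% of all probe sets fell. None passed under adjuvant, where 0% of all probe sets passed, and the list's part in these values was not tested.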

How the results depend on the processing

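Of 222 recomputed changes of members that had passed, 202 passed again in the same direction, 20 no longer passed and none reversed. All 20 belong to S100a3 and S100a11 in CIA+MLIF minus CIA and to S100a14 in CIA+MLIF minus adjuvant+MLIF. Of 734 recomputed changes of members that had not passed, 25 passed and 28 changed sign. The cause of these shifts was not tested unless named.

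Scaling mattered for the count of probe sets. Relative to 4497, 3600, 206, 0 and 1606 probe sets passing as deposited in CIA minus adjuvant, CIA+MLIF minus CIA, CIA+MLIF minus adjuvant+MLIF, adjuvant+MLIF minus adjuvant and the interaction, quantile normalization gave 7132, 6196, 391, 161 and 4382, and centring gave 7531, 6539, 337, 109 and 4012. The higher share of these calls was 26.5%, 75.5%, 98.1% and 72.5% as deposited, 49.8%, 47%, 85.4% and 49% after quantile normalization and 40.1%, 58.8%, 89.9% and 56.6% after centring, in the comparisons other than adjuvant+MLIF minus adjuvant. In the last, 17 were higher and 144 lower after quantile normalization, and 11 and 98 after centring. Quantile normalization gave 2 members passing in CIA+MLIF minus adjuvant+MLIF, 2 in CIA+MLIF minus adjuvant and 1 in adjuvant+MLIF minus adjuvant, and centring gave 2 in CIA+MLIF minus adjuvant and 5 in the interaction. After quantile normalization S100a8 minus S100a4 in CIA minus adjuvant was 2.80, S100a7a was 0.0503 in CIA minus adjuvant, -0.0178 in CIA+MLIF minus CIA and -0.0654 in the interaction, S100a10 was 0.0912 in CIA+MLIF minus adjuvant+MLIF and 0.0339 in the interaction, and S100a6 was 0.0668 in CIA+MLIF minus adjuvant. After centring S100a7a was 0.0187 in CIA minus adjuvant and -0.0249 in the interaction.

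Averaging the adjuvant+MLIF arrays, which leaves fewer residual degrees of freedom, gave 2292 probe sets and 3 members in CIA+MLIF minus CIA and 727 probe sets in the interaction. Testing all rows gave 3 members in CIA+MLIF minus CIA. Fitting only the groups compared gave 2794 probe sets in CIA minus adjuvant, 2282 with 3 members in CIA+MLIF minus CIA, and 274 in adjuvant+MLIF minus adjuvant. In that last comparison, leaving out the third of rows with the lowest signal gave 31, and trended and robust variance gave 4.

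Leaving out 1 array at a time gave 1728 to 14473 probe sets in CIA minus adjuvant, 1276 to 14151 in CIA+MLIF minus CIA, 135 to 414 in CIA+MLIF minus adjuvant+MLIF, 135 to 317 in CIA+MLIF minus adjuvant, 0 to 207 in adjuvant+MLIF minus adjuvant and 720 to 10663 in the interaction. The highest counts of the first, second and last came without CIA array 2. Members passing ranged from 3 to 7 in CIA+MLIF minus CIA, from 0 to 1 in CIA+MLIF minus adjuvant+MLIF, from 1 to 2 in CIA+MLIF minus adjuvant and from 3 to 5 in the interaction. The values that changed sign ranged from -0.27 to 0.0313 for S100a7a and from -0.21 to 0.28 for S100a10 in CIA minus adjuvant, and from -0.44 to 0.0469 for S100a10 in CIA+MLIF minus CIA. In CIA+MLIF minus adjuvant+MLIF they ranged from -0.0879 to 0.0666 for S100a7a and from -0.0277 to 0.31 for S100a16. In CIA+MLIF minus adjuvant they ranged from -0.33 to 0.66 for S100a9, from -0.015 to 0.14 for S100a7a, from -0.18 to 0.22 for S100a4 and from -0.44 to 0.40 for S100a6. In adjuvant+MLIF minus adjuvant S100a16 ranged from -0.0355 to 0.43. In the interaction the ranges were -0.0419 to 0.26 for S100a7a, -0.065 to 0.38 for S100a4, -0.16 to 0.68 for S100a6 and -0.36 to 0.13 for S100a10.

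For the differences of changes, S100a8 minus S100a14 ranged from -1.22 to -0.43 in CIA minus adjuvant, -1.91 to -1.12 in CIA+MLIF minus adjuvant, 0.31 to 1.10 in adjuvant+MLIF minus adjuvant and -1.79 to -0.997 in the interaction. S100a9 minus S100a14 ranged from -1.75 to -0.41, -2.25 to -0.91, 0.41 to 1.75 and -2.25 to -0.91 in the same comparisons. S100a9 minus S100a4 ranged from 2.32 to 2.90, -0.15 to 0.44, 0.75 to 1.34 and -3.80 to -3.22. The low-signal filter and the variance settings cannot alter these differences by construction.

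Deviations of arrays with the same replicate number correlated at 0.411 between CIA+MLIF and adjuvant, at -0.126 between CIA+MLIF and CIA, and between -0.0631 and 0.00593 for the other pairs of groups. Since only the first of these was over 0.1, the numbers were not taken as pairs. With the replicate block, 4682, 3707, 204, 186, 0 and 1662 probe sets and 4, 5, 1, 1, 0 and 3 members passed in the 6 comparisons, and no member's call changed. With the numbers of the CIA arrays crossed, added after seeing the data, the counts were 4749, 3927, 207, 194, 1 and 1760. Members with signal near the unannotated rows, S100a14 in the adjuvant groups above all, have changes whose size is limited by the floor.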
